A study of Mus musculus with 8 samples.

Results

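Capicua, encoded by Cic, and 9 genes that respond to ERK signalling and are known as genes it represses (Etv1, Etv4, Etv5, Dusp4, Dusp5, Dusp6, Spry1, Spry2 and Spry4) were followed through 8 RNA sequencing libraries of mouse brain neural progenitors. The 10 genes were chosen by name, and each matched 1 row of the 20793 rows in the deposited table. All 10 passed the filter on low values, as did 11968 rows in all. The values are FPKM, fragment numbers scaled to transcript length and library size, so that levels can be compared between genes. The cells came from FvB/C57BL/6 mice. They either proliferated in N2 medium with EGF and bFGF at 20 ng/ml, or differentiated for 5 days in neurobasal medium with B27, for which no growth factor is named. Removal of EGF and bFGF, the change of medium and the time in culture therefore cannot be told apart, and all are contained in what is called the state. Each state had 2 non-targeted (NT) libraries, 1 library labelled FUBP1-targeted and 1 labelled CIC-targeted. The NT libraries are called TRC and GFP (replicates 1 and 2) in the proliferating state and 7 and GFP-D (replicates 1 and 2) in the differentiating state, and the others FUBP1, FUBP1-D, CIC and CIC-D. The protocol describes lentiviral hairpins against FUBP1 with puromycin selection for 3 days. It gives no separate description for CIC or NT, no hairpin sequence and no promoter driving a hairpin, and it does not say whether the libraries came from separate cultures. The p-values below thus measure the spread between these libraries, part of which may be technical.

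Capicua is an HMG-box repressor that binds short octamers in the regulatory DNA of its target genes and holds them silent when receptor tyrosine kinase signalling is low. Growth factors such as EGF and FGF activate the RAS, RAF, MEK and ERK cascade, and ERK relieves this repression by phosphorylating capicua or displacing it from DNA. The PEA3 transcription factors Etv1, Etv4 and Etv5 carry the response forward, whereas the dual-specificity phosphatases (Dusp) and the Sprouty proteins (Spry) act as feedback brakes on ERK and its receptors. In neural progenitors EGF and FGF maintain proliferation, and loss of CIC is known from oligodendroglioma.

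Promoter sequence is shown for the members whose window before the transcription start held the core of the capicua octamer, because these letters are what capicua is known to bind. RefSeq windows (GRCm38.p6, not the mm9 build of the expression table) of 250 bases before the start matched 7 of the 10 members with 10 windows, and there was no entry for Etv4, Dusp4 and Spry4. The octamers TGAATGAA and TGAATGGA, searched on both strands, were in 0 of the 10 member windows, against 1.08% and 1.01% of all 32851 windows. No other octamer was searched. The core TGAATG, which both octamers contain and which was added after the windows had been searched, was in 3 member windows (Dusp5, Dusp6 and Etv5) and in 10.9% of all windows. The Etv5 window with the core lies before the downstream of 2 annotated starts, which are 1202 bases apart, and it held 3 copies, and 0.131% of all windows held 3 or more. Its copies began 242, 198 and 129 bases before the start, and each continued to TGAATGGG when read along the strand that holds it. Dusp6 had 1 copy, 133 bases before the start, and Dusp5 had 1, 37 bases before. The windows run 5′ to 3′ on the gene's strand, and capitals mark the core or, where it lies on the opposite strand, its complement CATTCA. A match in these letters is a description and not a measured binding site.
Etv5 (chr16:22438369-22438618, minus strand): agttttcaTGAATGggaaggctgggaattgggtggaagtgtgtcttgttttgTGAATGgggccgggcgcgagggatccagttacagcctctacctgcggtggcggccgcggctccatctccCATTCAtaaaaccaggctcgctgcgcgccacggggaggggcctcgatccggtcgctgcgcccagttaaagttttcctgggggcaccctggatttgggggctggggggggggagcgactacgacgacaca
Dusp6 (chr10:99262981-99263230, plus strand): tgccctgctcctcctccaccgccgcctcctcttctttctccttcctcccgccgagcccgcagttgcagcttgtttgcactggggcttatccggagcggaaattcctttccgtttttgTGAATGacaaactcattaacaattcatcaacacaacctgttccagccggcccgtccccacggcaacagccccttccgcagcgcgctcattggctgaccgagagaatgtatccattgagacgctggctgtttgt
Dusp5 (chr19:53528895-53529144, plus strand): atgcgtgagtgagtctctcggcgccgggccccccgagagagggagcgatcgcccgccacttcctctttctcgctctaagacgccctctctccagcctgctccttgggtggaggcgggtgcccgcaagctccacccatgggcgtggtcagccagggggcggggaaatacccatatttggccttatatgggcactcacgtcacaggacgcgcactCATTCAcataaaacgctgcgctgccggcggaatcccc

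The table holds no fragment counts, so the depth of each library is unknown. Low values moved in steps that were 1.21 to 1.33 times those of TRC in the differentiating libraries, and 0.949 to 1.05 times in the other proliferating ones. All 8 progenitor markers examined were detected, and their summed level was 3426 to 5106 FPKM in the proliferating and 2912 to 4550 FPKM in the differentiating libraries. Vim had the highest mean (2354 and 3072 FPKM), and single markers went both ways. In the limma fit described below, Fabp7 (means 1554 and 267 FPKM) and Hes1 were called lower with differentiation, and Msi1 and Sox1 higher. Of 7 microglial, 6 endothelial and 6 mesenchymal markers, 1, 1 and 2 reached 1 FPKM in any library. The summed microglial level was 0.573 to 1.70 FPKM in the proliferating and 0.252 to 1.23 in the differentiating libraries, and among the endothelial markers Cldn5 was listed at 0 in all 8. The 8 astrocyte markers, of which Gjb6 was listed at 0 in all 8 libraries, summed to 156 to 262 FPKM in the proliferating and 626 to 893 FPKM in the differentiating libraries. The sums of 8 neuronal markers were 56.8 to 565 and 39.2 to 70.1 FPKM, and those of 8 oligodendrocyte lineage markers 670 to 1401 and 323 to 908 FPKM. Among the neuronal markers Nefl alone reached 537 FPKM in a proliferating library. Fubp1 itself was not lower in the library labelled FUBP1 (34.8 FPKM) than in both proliferating NT libraries (50.2 in TRC and 12.4 in GFP), and it was 21.6 FPKM in FUBP1-D against 24.8 in 7 and 25.4 in GFP-D. The FUBP1 arm is therefore described by its labels only.

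Cic was lower in both libraries labelled CIC than in the NT libraries of the same state, and its level did not follow the state (chromosome 7, 26067198 to 26079167, mm9). In the proliferating state it stood at 39.4 FPKM in TRC, 33.8 in GFP, 49.5 in FUBP1 and 13.3 in CIC. In the differentiating state it stood at 42.0 FPKM in 7, 35.3 in GFP-D, 25.6 in CIC-D and 32.1 in FUBP1-D. The CIC library was the lowest of its state each time, and the NT libraries of the 2 states overlapped. The proliferating CIC library held 33.6% of the TRC level and 39.2% of the GFP level, whereas CIC-D held 60.9% of 7 and 72.5% of GFP-D. Within the CIC pair, Cic was 1.93-fold higher in CIC-D than in CIC. Fitted over both states on the log2(FPKM + 1) scale, the difference with the CIC label was -0.98 (SE 0.30, 95% interval -1.69 to -0.28), with an unadjusted p of 0.0127 and a limma adjusted p of 0.332 over all rows. It was -0.46 without CIC and -1.51 without CIC-D. The state difference of Cic was 0.11 (SE 0.25, adjusted p = 0.752), and its sign turned to -0.16 when either CIC or CIC-D was left out. By mean level the conditions ran, from the lowest, CIC, CIC-D, FUBP1-D, NT proliferating, NT differentiating and FUBP1. The 2 NT means (36.6 ± 3.96 and 38.6 ± 4.74 FPKM, SD, n = 2 and 2) differed by less than their spread.

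**Figure D1:**
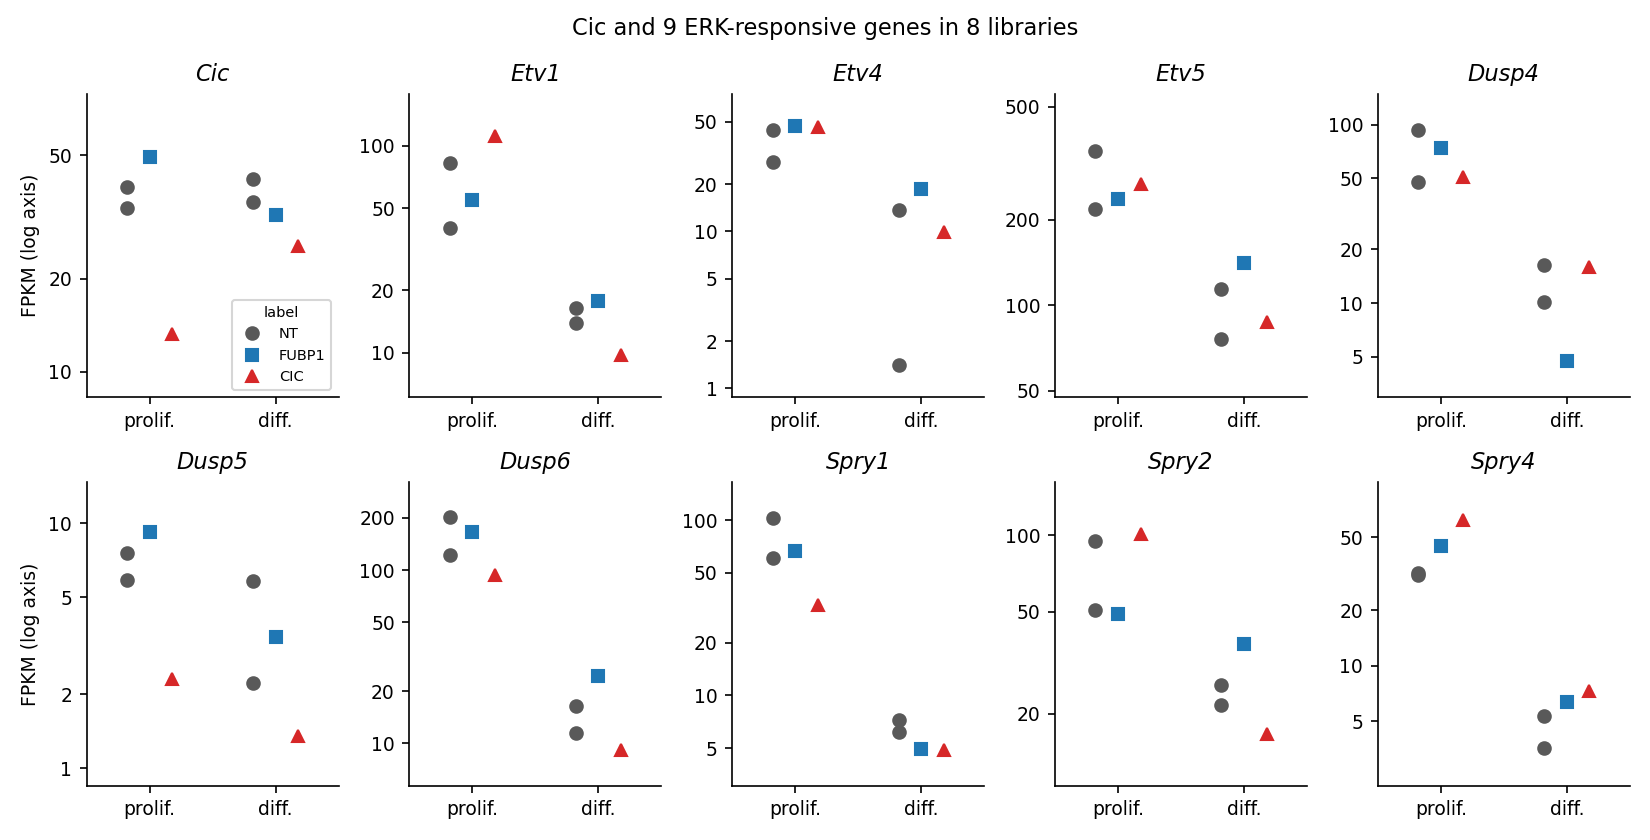
FPKM of Cic and the 9 ERK-responsive genes in the 8 libraries, on a log axis of its own range in each panel. Circles are the NT libraries (2 per state), squares the libraries labelled FUBP1 and triangles those labelled CIC (1 per state each). In the panels of Etv1, Etv4, Etv5, Dusp4, Dusp6, Spry1, Spry2 and Spry4 all 4 differentiating libraries lie below all 4 proliferating ones, whereas Cic and Dusp5 overlap between states.

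The target genes were lower in differentiation medium than in proliferation medium in every arm. In the additive model of state and targeted gene, 8 of the 10 members passed the test and fell, where 17.7% of all rows were called lower. The same 8 members had all 4 differentiating libraries below all 4 proliferating ones, a pattern that 17.8% of all rows showed. The median change of the 9 targets was -2.17 on the log2(FPKM + 1) scale, while the median of all 11968 rows was 0.09. As in any bulk sample, fewer cells expressing a gene and less RNA per cell cannot be told apart. All 16 cell cycle markers were also called lower, their summed level going from between 807 and 1843 FPKM to between 77.4 and 156 FPKM. Of 7 tested astrocyte markers 4 were called higher and 0 lower, where 21.2% of all rows were called higher. S100b had a negative estimate (-0.43, limma adjusted p = 0.331). The part of either marker list in these changes was not tested.

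Among the PEA3 factors, Etv5 (chromosome 16, 22381386 to 22439643) was the most abundant in every library. It stood at 218 FPKM in TRC, 348 in GFP, 236 in FUBP1 and 268 in CIC, and at 114 FPKM in 7, 75.8 in GFP-D, 87.4 in CIC-D and 141 in FUBP1-D. The highest differentiating library was thus FUBP1-D, still below TRC, the lowest proliferating one. The change was -1.36 (SE 0.25, limma adjusted p = 0.00598), the smallest among the members that fell, and Etv5 kept 39.1% of its proliferating mean. Etv1 (chromosome 12, 39506845 to 39594802) stood at 40.2 FPKM in TRC, 82.6 in GFP, 54.7 in FUBP1 and 112 in CIC. After differentiation it stood at 16.5 FPKM in 7, 13.9 in GFP-D, 9.76 in CIC-D and 17.7 in FUBP1-D. CIC was the highest of the proliferating libraries and CIC-D the lowest of the differentiating ones. The fitted change was -2.17 (SE 0.35, limma adjusted p = 0.0039).

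Etv4 (chromosome 11, 101631056 to 101646624) varied most between the NT libraries of the differentiating state. It stood at 44.6 FPKM in TRC, 27.7 in GFP, 47.3 in FUBP1 and 46.6 in CIC, and at 13.6 FPKM in 7, 1.41 in GFP-D, 9.95 in CIC-D and 18.7 in FUBP1-D. GFP was the lowest proliferating and GFP-D by far the lowest differentiating library, so that 7 was 9.68-fold above GFP-D within the NT group. Etv4 fell by 2.16 on the log2(FPKM + 1) scale (SE 0.55, limma adjusted p = 0.0193). The call was lost without CIC (adjusted p = 0.0622), without CIC-D (0.0621) and in the model of 6 group means (0.0727).

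Of the phosphatases, Dusp6, a cytoplasmic phosphatase that is selective for ERK (chromosome 10, 98725865 to 98730123), fell furthest. It stood at 202 FPKM in TRC, 123 in GFP, 166 in FUBP1 and 94.1 in CIC, and at 16.5 FPKM in 7, 11.5 in GFP-D, 9.12 in CIC-D and 24.5 in FUBP1-D. The groups were far apart, with a mean 9.49-fold lower after differentiation and a change of -3.20 (SE 0.23, limma adjusted p = 0.000584). Dusp4, a nuclear phosphatase (chromosome 8, 35870664 to 35882948), stood at 47.8 FPKM in TRC, 93.5 in GFP, 74.2 in FUBP1 and 50.8 in CIC. It stood at 16.3 FPKM in 7, 10.2 in GFP-D, 15.9 in CIC-D and 4.76 in FUBP1-D, where FUBP1-D was the lowest. The change was -2.47 (SE 0.37, limma adjusted p = 0.00316). Dusp5, a nuclear phosphatase for ERK (chromosome 19, 53603808 to 53615812), was the least abundant member in every proliferating library, and its states overlapped. It stood at 7.57 FPKM in TRC, 5.89 in GFP, 9.23 in FUBP1 and 2.32 in CIC, and at 5.81 FPKM in 7, 2.22 in GFP-D, 1.36 in CIC-D and 3.43 in FUBP1-D. The proliferating CIC library lay below 7 and FUBP1-D, and the state difference of -0.78 (SE 0.28, limma adjusted p = 0.0614) missed the threshold. It passed with quantile normalization (-1.05, adjusted p = 0.0243), with the median of ratios (0.0466), without 7 (0.0281) and in same-name pairs (0.0375).

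The Sprouty genes, which encode feedback inhibitors of receptor tyrosine kinase signalling, fell by unequal amounts. Spry1 (chromosome 3, 37538872 to 37543521) stood at 60.6 FPKM in TRC, 103 in GFP, 66.9 in FUBP1 and 32.8 in CIC, and at 7.21 FPKM in 7, 6.22 in GFP-D, 4.89 in CIC-D and 4.93 in FUBP1-D. The differentiating libraries were close to each other, and their mean was 11.3-fold below that of the proliferating ones (change -3.20, SE 0.25, limma adjusted p = 0.000584). Spry4 (chromosome 18, 38745919 to 38760922) stood at 31.1 FPKM in TRC, 32.1 in GFP, 44.9 in FUBP1 and 62.4 in CIC, and at 5.34 FPKM in 7, 3.56 in GFP-D, 7.26 in CIC-D and 6.35 in FUBP1-D. In both states the order was the same, with the NT libraries lowest, then the library labelled FUBP1 and then that labelled CIC. Spry4 fell by 2.69 (SE 0.18, limma adjusted p = 0.000584), with the smallest standard error of the members. Spry2 (chromosome 14, 106291164 to 106296036) stood at 50.8 FPKM in TRC, 94.5 in GFP, 49.2 in FUBP1 and 101 in CIC, and at 25.9 FPKM in 7, 21.5 in GFP-D, 16.7 in CIC-D and 37.3 in FUBP1-D. The gap between states was narrow in the FUBP1 pair, where FUBP1-D kept 75.9% of the FUBP1 level, and wide in the CIC pair, where CIC-D kept 16.5%. The fitted change was -1.49 (SE 0.35, limma adjusted p = 0.0151). The call was lost without CIC (adjusted p = 0.0527), without CIC-D (0.0526) and without both libraries named GFP (0.0603).

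**Figure D2:**
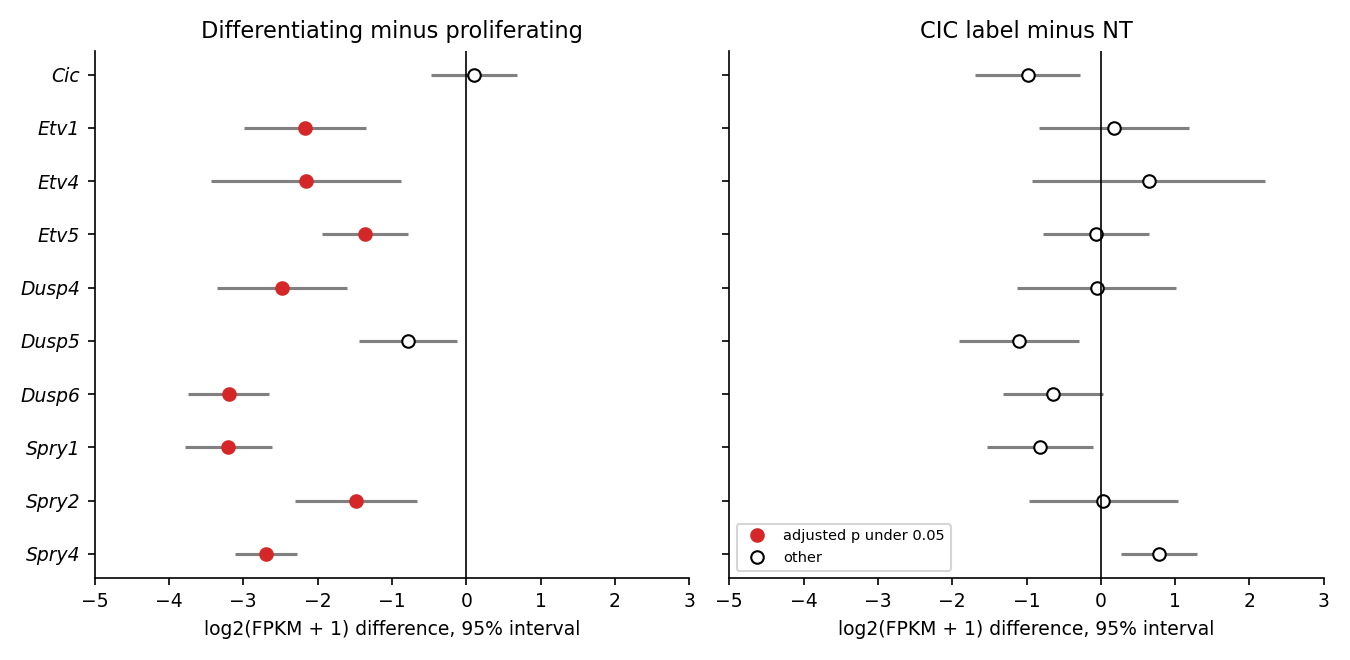
Fitted differences of the 10 members on the log2(FPKM + 1) scale with their 95% intervals, from the additive limma model over 8 libraries. The left panel gives differentiating minus proliferating and the right panel the CIC label minus NT, and filled points passed an adjusted p of 0.05 over all rows. The 8 filled points on the left lie between -3.20 (Spry1) and -1.36 (Etv5), and no point on the right is filled.

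The state difference was also taken within the NT libraries alone, from a model of 6 group means. There the median change of the 9 targets was -2.29, beside 0.08 over all rows. Dusp6 (-3.42, SE 0.36), Spry1 (-3.38, SE 0.35) and Spry4 (-2.60, SE 0.29) were called lower, each at a limma adjusted p of 0.0435. These are 3 of 10 members, where 0.886% of all rows were called lower. This fit has only 2 residual degrees of freedom. Leaving out any of TRC, 7 and GFP-D removed the 3 calls, and 0 of all 11968 rows were then called. Leaving out GFP left 2 members called, where 274 of all rows were called lower. Etv1, Etv5, Dusp4 and Spry2 had estimates from -2.29 (Dusp4) to -1.52 (Spry2) with adjusted p-values of 0.0653 (Dusp4) to 0.0939 (Spry2). Etv4 was at -2.61 (SE 0.86, adjusted p = 0.145).

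Libraries that share a name across states, and the remaining NT libraries TRC and 7, differed in how far single targets went down. Dusp6 was left at 9.34% in the GFP pair, 8.18% from TRC to 7, 14.8% in the FUBP1 pair and 9.69% in the CIC pair. Spry4 was left at 11.1%, 17.2%, 14.1% and 11.6% in the same order. The values of Dusp4 were 10.9%, 34.0%, 6.41% and 31.3%, and those of Etv5 21.8%, 52.5%, 59.7% and 32.7%. By these percentages the CIC pair lay between the NT values for Spry4, Dusp4, Etv5, Etv4 and Dusp5. It lay above both for Dusp6 and for Spry1 (14.9%, NT 6.03% and 11.9%). It lay below both for Etv1 (8.73%, NT 16.9% and 41.0%) and Spry2 (16.5%, NT 22.8% and 51.0%). On the log2(FPKM + 1) scale Spry4 also lay below both (-2.94, NT -2.86 and -2.34). With 1 library per arm and state these differences have no replicate check.

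With the CIC label, the targets did not move in one direction. In the additive model 0 of the 10 members passed the test in limma, where 0.109% of all rows (13 rows) were called in either direction. At an unadjusted p under 0.05 there were 4 members (Cic, Dusp5, Spry1 and Spry4), where 11.4% of all rows reached it. The median difference of the 9 targets was -0.06, beside -0.04 over all rows, and over all alternatives the smallest adjusted p of any member ran from 0.122 to 0.999. Of the oligodendrocyte lineage, astrocyte and cell cycle markers, 6, 7 and 16 were tested with the CIC label, and 0 were called in limma. At an unadjusted p under 0.05 there were 1, 3 and 1. Their sums are given as a description. The 8 oligodendrocyte lineage markers summed to 670 FPKM in CIC against 1281 to 1401 in the proliferating NT libraries, and to 510 in CIC-D against 323 to 438 in the differentiating ones. The 8 astrocyte markers summed to 262 FPKM in CIC (NT 156 to 227) and 626 in CIC-D (NT 683 to 796), and the 16 cell cycle markers to 963 FPKM in CIC (NT 807 to 1843) and 77.4 in CIC-D (NT 77.9 to 83.2). Their part in the values below was not tested.

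Spry4 was the member that lay above both NT libraries in both states, a pattern shown by 13.0% of all rows. The CIC library held 200% of TRC and 195% of GFP, and CIC-D held 136% of 7 and 204% of GFP-D. The fitted difference was 0.79 (SE 0.22, 95% interval 0.28 to 1.30, unadjusted p = 0.00781, limma adjusted p = 0.294). Spry4 in the libraries labelled FUBP1 was also above both NT libraries in each state, with a difference of 0.47 (SE 0.22, adjusted p = 0.999). CIC libraries lay below both NT libraries in both states for Cic, Dusp5, Dusp6 and Spry1, a pattern shown by 17.7% of all rows. Dusp5 was at 30.7% of TRC and 39.5% of GFP in CIC, and at 23.4% of 7 and 61.1% of GFP-D in CIC-D, with a fitted difference of -1.10 (SE 0.35, 95% interval -1.91 to -0.29, adjusted p = 0.332). Spry1 was at 54.2% of TRC and 31.8% of GFP in CIC, and at 67.9% of 7 and 78.7% of GFP-D in CIC-D (difference -0.81, SE 0.30, 95% interval -1.53 to -0.10, adjusted p = 0.398), and the difference was -0.36 without CIC and -1.27 without CIC-D. Dusp6 was at 46.6% of TRC and 76.7% of GFP in CIC, and at 55.3% of 7 and 79.6% of GFP-D in CIC-D (difference -0.64, SE 0.29, 95% interval -1.31 to 0.03, adjusted p = 0.452). For these feedback genes the CIC libraries lay below the NT libraries of their state, though none passed the test.

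Etv5, Dusp4 and Etv4 gave no common direction against the NT libraries. Etv5 in CIC was 123% of TRC but 76.9% of GFP, and in CIC-D 115% of GFP-D but 76.5% of 7, with a difference of -0.07 (95% interval -0.78 to 0.65). Dusp4 lay between the NT libraries in both states, with a difference of -0.06 (95% interval -1.13 to 1.02). The Etv4 estimate of 0.64 (SE 0.67, 95% interval -0.92 to 2.21) rested on GFP-D, since it was 0.03 without that library and 0.60 without GFP, and it turned to -0.18 without both. These intervals bound what 8 libraries could show, and they do not show that the levels were alike.

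**Figure D3:**
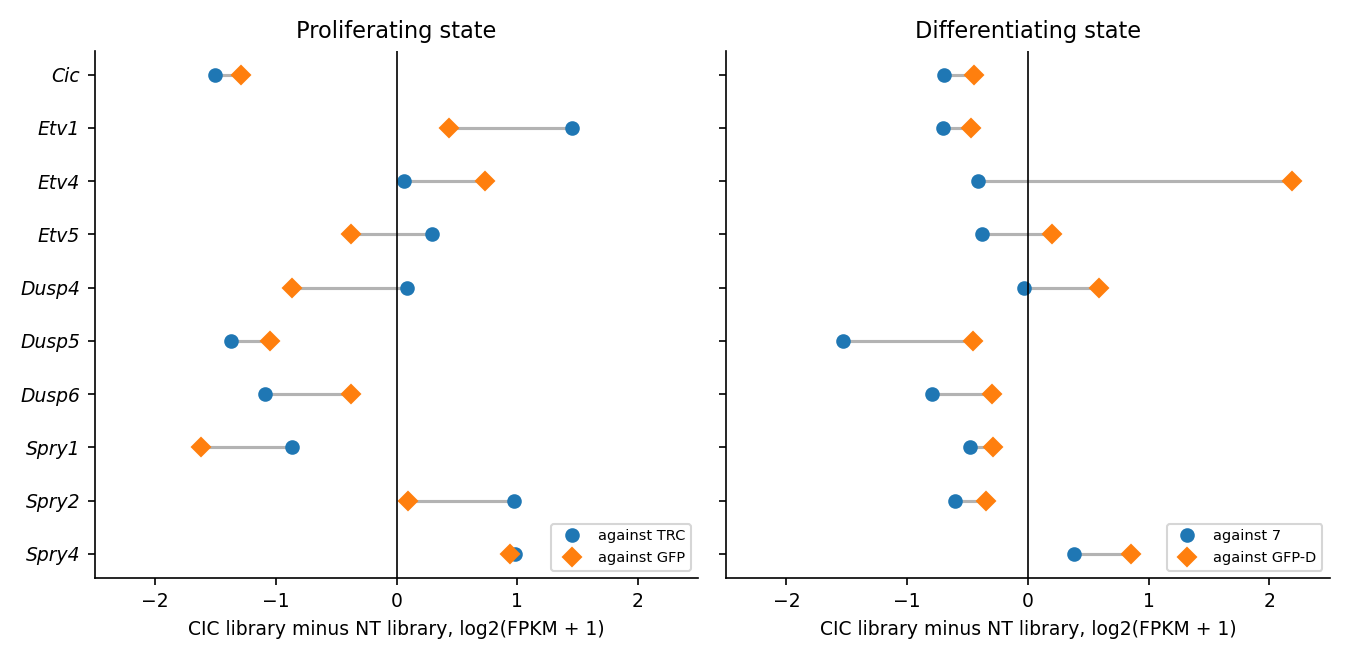
Difference between the library labelled CIC and each NT library of its state, on the log2(FPKM + 1) scale, for the 10 members (circles against TRC or 7, diamonds against GFP or GFP-D, joined by a grey line). Lines that cross 0 mark genes for which the CIC library lies between the NT libraries. Cic, Dusp5, Dusp6 and Spry1 lie left of 0 in both panels and Spry4 right of 0, whereas Etv1 and Spry2 lie right of 0 in the proliferating and left of 0 in the differentiating state.

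Whether the difference with the CIC label depends on the state was tested from the group means. No member was called (0 of 10, 0% of all rows, limma), and 0 members and 512 of all rows had an unadjusted p under 0.05. In the proliferating state the CIC library lay above both NT libraries for 4 members (Etv1, Etv4, Spry2 and Spry4; 31.4% of all rows) and below both for 4 (Cic, Dusp5, Dusp6 and Spry1; 39.9%). In the differentiating state it lay above both for 1 member (Spry4; 30.8%) and below both for 6 (Cic, Etv1, Dusp5, Dusp6, Spry1 and Spry2; 34.1%). Etv1 and Spry2 thus lay above both NT libraries in the proliferating state and below both in the differentiating state, a crossing shown by 7.57% of all rows. Etv1 in CIC was 278% of TRC and 135% of GFP, and in CIC-D 59.3% of 7 and 70.1% of GFP-D. Spry2 in CIC was 199% of TRC and 107% of GFP, and in CIC-D 64.5% of 7 and 77.6% of GFP-D. The difference between states was -1.53 for Etv1 (SE 0.70, unadjusted p = 0.0765) and -1.01 for Spry2 (SE 0.64, unadjusted p = 0.173), both at a limma adjusted p of 0.998. For Cic itself it was 0.82 (SE 0.46, unadjusted p = 0.128, adjusted p = 0.998).

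With the FUBP1 label, 0 of the 10 members and 0% of all rows were called in limma, and 0 members and 256 rows had an unadjusted p under 0.05. The estimates ran from -0.56 for Dusp4 (SE 0.46) to 1.08 for Etv4 (SE 0.67), all at an adjusted p of 0.999. The Etv4 estimate leaned on the low GFP-D library, since FUBP1-D held 1330% of GFP-D but 137% of 7. Cic did not pass the test with the FUBP1 label (0.09, SE 0.30), and its values there lay above both NT libraries in the proliferating state and below both in the differentiating one. Of the 16 cell cycle markers 9 had an unadjusted p under 0.05 with the FUBP1 label, which 2.14% of all rows reached. The median difference of the 16 was 0.98, that is higher with the label, beside 0.02 over all rows. The part of these markers in the values of the members was not tested. The CIC and FUBP1 comparisons share their NT libraries.

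State and targeted gene were balanced over the 8 libraries, so the sum of squares of each member could be split between them as a description. State took 93.3% for Spry4, 93.2% for Spry1, 92.3% for Dusp6, 85.4% for Etv1, 84.4% for Dusp4, 83.6% for Etv5, 73.7% for Spry2 and 61.4% for Etv4. Targeted gene took from 0.131% (Spry2) to 11% (Etv4) for these 8 genes. The split was the other way round for Cic, with 1.06% for state and 70.5% for targeted gene, and for Dusp5, with 30.4% and 50.5%. Over all rows the medians were 46.3% for state and 15.5% for targeted gene, and the latter term has 2 degrees of freedom where state has 1. The term for targeted gene averages over the states, so label differences of opposite sign cancel and are counted in neither term. For Spry2 the CIC label minus NT was 0.53 in the proliferating and -0.48 in the differentiating state, and for Etv1 0.94 and -0.59. For Dusp4 it was -0.39 and 0.28, and the other members kept their sign.

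**Figure D4:**
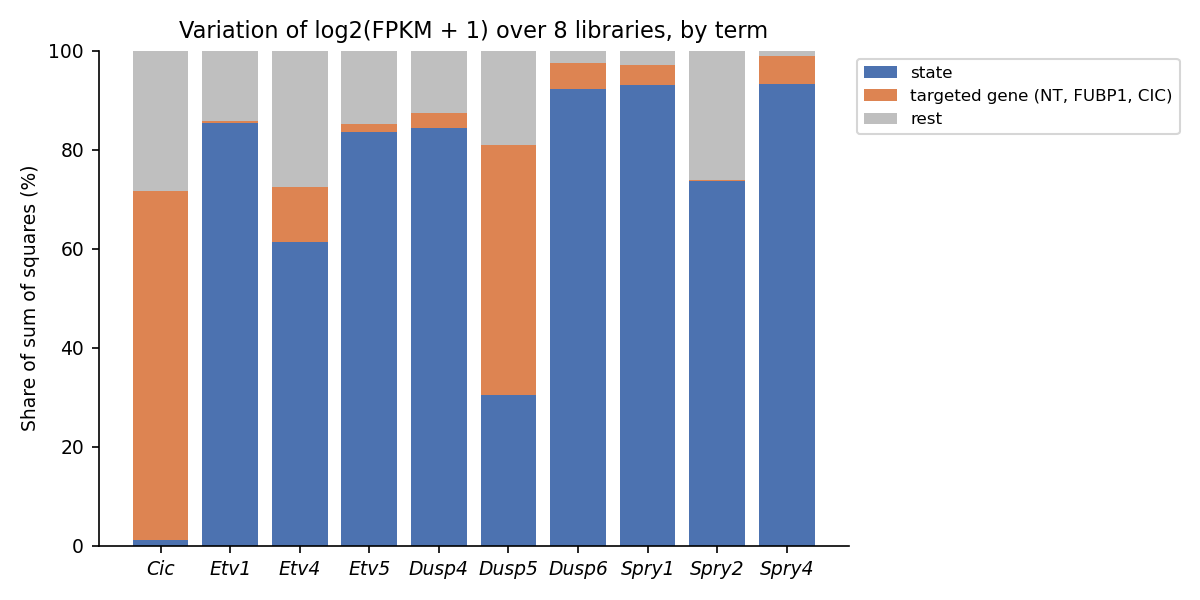
Share of the sum of squares of log2(FPKM + 1) over 8 libraries, in percent, for each of the 10 members. The parts are state, targeted gene (NT, FUBP1 or CIC) and the rest. The rest holds label differences that change with state, together with the spread between NT libraries. State holds the largest share in 8 of the 10 bars, and targeted gene in those of Cic (70.5%) and Dusp5 (50.5%).

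Other genes of the pathway were taken from lists. Of 22 further genes that respond to ERK or are bound by CIC, 11 fell and 2 rose with differentiation, with a median change of -0.66 beside 0.09 over all rows, of which 17.7% were called lower and 21.2% higher. Those of smallest p that fell were Ccnd1, cyclin D1 (from 968 ± 241 to 114 ± 50.7 FPKM, SD, n = 4 and 4, limma adjusted p = 0.0012), Plaur, the urokinase receptor (from 25.9 ± 16.0 to 1.63 ± 0.559 FPKM, adjusted p = 0.00171) and Myc (from 46.9 ± 20.1 to 17.5 ± 6.60 FPKM, adjusted p = 0.00391). Il17rd, an FGF signalling inhibitor also known as Sef (from 0.552 ± 0.294 to 2.63 ± 0.150 FPKM, adjusted p = 0.00475), and the clock gene Per2 (from 2.24 ± 0.548 to 6.59 ± 1.24 FPKM, adjusted p = 0.00589) rose. With the CIC label 0 of the 22 were called and 3 (Myc, Epha2 and Dusp14) had an unadjusted p under 0.05, a share near the 11.4% of all rows.

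Relatives of the members were described in the same way. Of 15 other MAP kinase phosphatase, Sprouty and ETS repressor genes, 11 were tested, of which 1 fell and 2 rose, with a median of -0.16. The share that rose is near the 21.2% of all rows called higher. The ETS repressor Erf fell (from 29.9 ± 12.5 to 16.1 ± 1.71 FPKM, SD, n = 4 and 4, limma adjusted p = 0.0275). Dusp10, a phosphatase for p38 and JNK, rose from 5.72 ± 2.13 to 16.7 ± 8.29 FPKM (adjusted p = 0.00716), and Dusp8 rose from 0.834 ± 1.29 to 2.76 ± 0.660 FPKM (adjusted p = 0.0114). Dusp1, the immediate early phosphatase, stood at 16.9 ± 11.5 and 7.86 ± 2.28 FPKM and did not pass (adjusted p = 0.149). With the CIC label 0 of the 11 were called. Dusp8 was the 1 gene with an unadjusted p under 0.05 (difference 1.07, limma adjusted p = 0.332), which 11.4% of all rows reached.

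The receptors and kinases upstream of ERK, with the partners of capicua, were mostly not called. Of 29 genes 28 were tested, of which 7 rose and 2 fell, with a median of 0.25. The share that rose is again near the 21.2% of all rows called higher. The MEK1 gene Map2k1 rose from 66.9 ± 14.6 to 156 ± 12 FPKM (SD, n = 4 and 4, limma adjusted p = 0.0022), the FGF receptor Fgfr3 from 8.94 ± 7.59 to 45.0 ± 16.8 FPKM (0.00434) and Frs2, an FGF receptor adaptor, from 23.4 ± 4.79 to 43.1 ± 7.69 FPKM (0.0103). Atxn1, whose protein ataxin-1 forms a complex with capicua, rose from 0.674 ± 0.334 to 2.86 ± 0.964 FPKM (0.0076), whereas its relative Atxn1l stood at 12.9 ± 2.19 and 12.3 ± 1.70 FPKM (0.835). Mapk3, a kinase of the cascade, stood at 105 ± 90.8 and 177 ± 37.4 FPKM and did not pass (0.089). With the CIC label 0 of the 28 were called and 2 (Fgfr2 and Rps6ka1) had an unadjusted p under 0.05, which 11.4% of all rows reached.

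The genes whose pattern was most like that of the members were ranked by Pearson correlation of log2(FPKM + 1) over the 8 libraries, among 11968 rows and leaving out the members and lists. For Cic they were Zfp275 (r = 0.982), Paox (0.961), Fam35a (0.958), Brwd1 (0.955) and B4galnt4 (0.942). Zfp275, a zinc finger gene, stood at 5.90 FPKM in CIC and 10.7 in CIC-D, with the 4 NT libraries between 14.3 and 16.9 FPKM. For the mean profile of the 9 targets they were Rpl29 (0.991), Rpl23a (0.990), Rps3a1 (0.990), Eef1b2 (0.988) and Rpl18 (0.988). The first 3 and the last encode cytosolic ribosomal proteins and Eef1b2 a translation elongation factor, and the mean of Rpl29 went from 650 FPKM in the proliferating to 276 FPKM in the differentiating libraries. All points share the same 8 libraries and the split by state, so these correlations are descriptions.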

How the data were processed

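Build mm9, TopHat2 2.0.11, Cufflinks 2.1.1, bcl2fastq 2.17 and cutadapt are named in the submitters' processing notes. Settings, annotation and strand use were not given in the sources used here. The authors deposited 1 table of FPKM per gene and library, used as deposited. Starts were counted from 0 in the table and are printed counted from 1. Rows reaching 1 FPKM in 2 libraries were tested as log2(FPKM + 1), which understates changes of low genes, with limma 3.58.1 in R 4.3.3 (mean-variance trend, two-sided, Benjamini-Hochberg over 11968 rows, threshold 0.05). A model with additive terms for state and targeted gene, on 8 libraries (4 residual degrees of freedom), gave the differences with state, CIC label and FUBP1 label. A model of 6 group means (2 residual degrees of freedom, single libraries assumed to vary like NT libraries) gave the state difference in NT and the CIC label by state. The additive model was tested on simulated data, for state and the CIC label, and the model of group means was not. All 10 members are named; of each pathway list, genes among the 5 of smallest p for state are named. Atxn1l, Mapk3 and the list genes under an unadjusted p of 0.05 with the CIC label were chosen after their values were seen. The members and lists were chosen with earlier results of these data known. Alternatives were other pseudocounts, no filter, 2 rescalings, other models and leaving out each library.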

Additional observations from a re-analysis of the deposited data

How the results depend on the processing

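The count of members called lower with differentiation was 8 and ranged from 6 (without CIC or without CIC-D) to 9, with 9 under both rescalings, and it was 9 in the 3 same-name pairs (GFP, FUBP1, CIC) with the name as a replicate block and 7 with group means. The replicate numbers of the NT libraries follow deposition order and pair nothing. For the CIC label, the FUBP1 label and the CIC label by state the count was 0 in every alternative run, and the last could not be fitted without CIC or CIC-D. Within NT the count of 3 went to 0 with a pseudocount of 5 and with no filter, and ranged from 0 to 3 on leaving out 1 library. In each setting where this count was 0, 0 of all rows were called. Rows called over the whole table ranged from 2477 to 4857 around 4647 for differentiation, from 1 to 35 around 13 for the CIC label and from 0 to 442 around 175 within NT. Leaving out 1 library moved the Cic state difference over -0.16 to 0.35, and the difference with the CIC label over -0.66 to 0.72 for Spry2, -0.63 to 0.99 for Etv1, -0.23 to 0.11 for Etv5 and -0.63 to 0.52 for Dusp4, so that these signs turned. With the CIC label, Spry2 was also at -0.011 with quantile normalization and Dusp4 at 0.0022 with the median of ratios, 0.13 against NT and FUBP1 together and 0.026 without both libraries named GFP. In that last setting, added after seeing the data, Etv4 was at -0.18 and 7 members were called lower with differentiation. The cause of these turns was not tested. The unknown depth limits Dusp5 and the other low values most.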
